A study of Mus musculus with 27 samples.

Results

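Here 6 libraries of poly(A) RNA are described, those of wild-type macrophages given dexamethasone (3 libraries) and of wild-type macrophages given vehicle (3 libraries), out of 27 libraries in the series. They were chosen by their labels alone, as every library of these 2 groups. The cells of both groups came from the marrow of 8- to 10-week-old males and were differentiated over 5 days in a medium holding bovine serum (20%) and, as the source of the macrophage growth factor CSF1, medium conditioned by L cells (10%). Dexamethasone, a synthetic glucocorticoid, was given at 100 nM for 24 h. The genotype label of both groups reads C57BL/6, LysM-Cre+/+; GRIP1wt/wt, so by that label treated and control cells alike carry Cre recombinase in the Lyz2 locus, whereas their titles say BL6 without naming Cre. The LysM-Cre insertion disrupts Lyz2, the lysozyme gene, which had 27.8, 28.4 and 32.3 CPM in the dexamethasone libraries, against 49.7, 36.3 and 30.9 CPM in the vehicle libraries (adjusted p = 0.406), where CPM is the count relative to the scaled library size. Set beside them below are 4 dexamethasone and 4 vehicle libraries of knockout macrophages (LysM-Cre+/+; GRIP1fl/fl, in which Cre of myeloid cells removes a floxed part of Ncoa2, the gene of the coregulator GRIP1) and 3 libraries of wild-type cells given corticosterone at 500 nM for 24 h. No label tells whether the libraries of a group are from different animals, and p-values therefore reflect the spread between libraries, which may be technical.

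Glucocorticoids enter the cell and bind the glucocorticoid receptor (Nr3c1), which is held ready by HSP90 and its partner proteins and then moves to the nucleus. There it raises genes near its own binding sites, among them genes whose products damp its action, and it lowers many inflammatory genes driven by NF-kappaB and AP-1. In macrophages glucocorticoids are known for restraining cytokines and chemokines and for favouring a scavenging state with uptake of dying cells and haemoglobin.

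The 6 libraries held 20162729 to 31589581 counts. Macrophage transcripts were abundant: all 20 macrophage identity genes were tested, and their summed level was 12339.6, 13686 and 13834 CPM in dexamethasone libraries 1, 2 and 3, against 12432, 13018 and 13395 CPM in vehicle libraries 1, 2 and 3. Markers of other cell types summed to lower levels. Stromal markers, 10 genes led by the collagens Col1a1 and Col1a2, summed to 852, 361 and 225 CPM with dexamethasone and 797, 280.3 and 215 CPM with vehicle, so that library 1 was highest in both groups. Library 1 also had the highest sum in each group of neutrophil markers (318, 188 and 202 CPM, against 433, 192 and 155 CPM) and of monocyte markers. Along the second principal component of the 1000 most variable genes (41.5% of variance) it lay above the other libraries of its group. Counts led with are therefore also given without both libraries numbered 1 where this moved them by over 1.5 times, an alternative added after seeing the data. Beyond that, the part of these transcripts in the results was not tested.

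**Figure D1:**
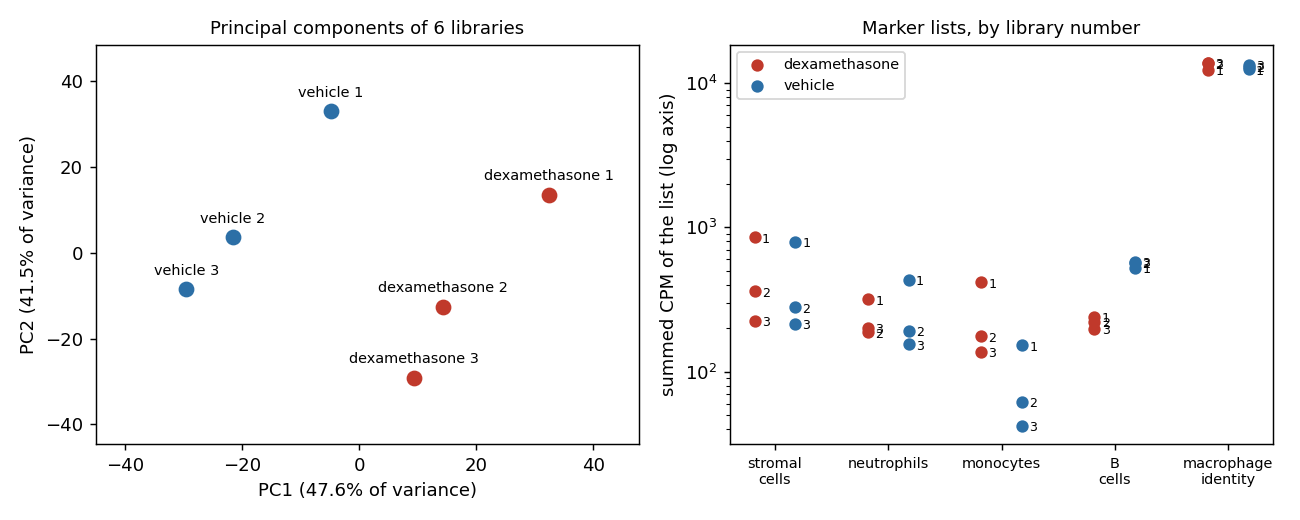
The left panel places the 6 wild-type libraries on the first and second principal components, and the right panel gives the summed CPM of 5 marker lists on a log axis, each point being 1 library with its number. The first component puts the dexamethasone libraries to the right of the vehicle libraries, stromal sums are 852 CPM (dexamethasone) and 797 CPM (vehicle) in the libraries numbered 1, and the macrophage sums lie between 12340 and 13834 CPM in all 6.

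Dexamethasone changed 1996 of 14589 genes tested (13.7%) at an adjusted p under 0.05 by edgeR's quasi-likelihood test with Benjamini-Hochberg adjustment: 1117 rose (7.66%) and 879 fell (6.03%). Most changes were small. Among the genes that rose the median log2 fold change was 0.45, and 231 rose at least 2-fold, 73 at least 4-fold and 29 at least 8-fold. Among those that fell the median was −0.59, and 239 fell at least 2-fold, 61 at least 4-fold and 16 at least 8-fold. Over all genes tested the median was 0.01. The libraries of the 2 groups did not overlap for 1943 of the 1996 genes (97.3%), against 29.9% of all genes tested. That 1992 moved the same way in each of the 3 same-numbered pairs follows for nearly all from the lack of overlap. The calls rest on these same libraries. Without the libraries numbered 1, 1334 of the 1996 were still called. With the library number as a block, the count was 3225 genes, 1785 that rose (12.2%) and 1440 that fell (9.87%), and it held 1995 of the 1996. Leaving out dexamethasone library 3 lowered the count to 1327.

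**Figure D2:**
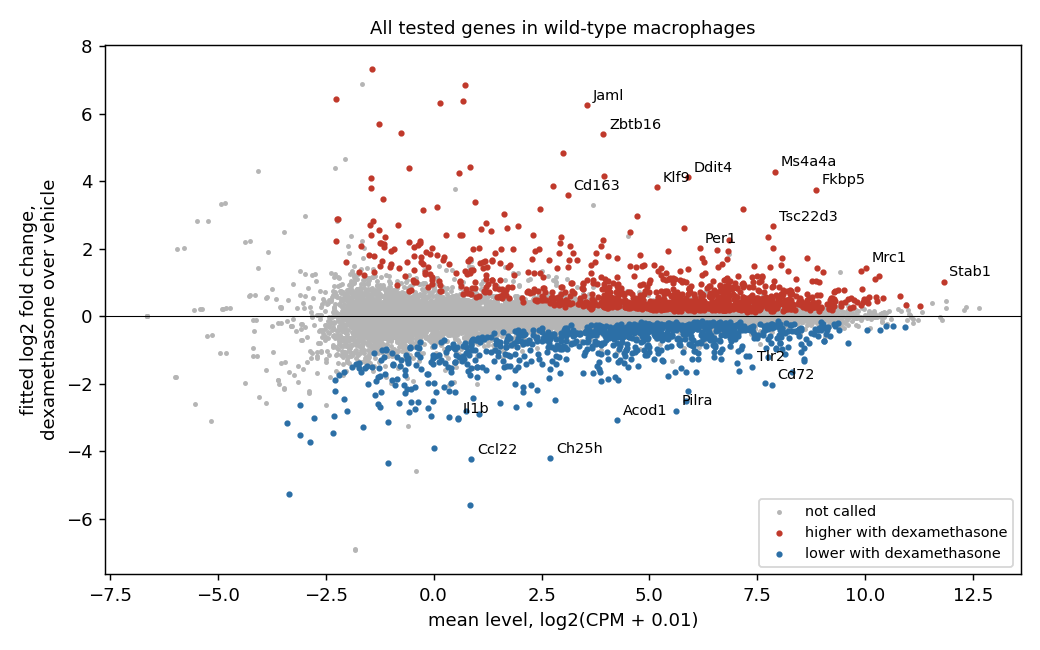
Each point is 1 of 14589 genes, with its mean level over both groups as log2(CPM + 0.01) on the horizontal axis and the fitted log2 fold change of dexamethasone over vehicle on the vertical axis. Red points rose (1117) and blue points fell (879) at an adjusted p under 0.05, and the labelled genes near the top include Jaml, Zbtb16, Ms4a4a, Ddit4, Klf9 and Fkbp5.

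Start-site windows of a few responding genes show the letters on which the receptor and NF-kappaB are known to bind. The core of the glucocorticoid response element was searched as ACANNNTGT, which reads the same on both strands, and an NF-kappaB type site as GGGA, any 2 bases and TTCC, on both strands. Windows ran from 250 bases before to 50 bases after each RefSeq gene start. ACANNNTGT was in 71 of 1161 windows of genes that rose (6.12%), in 40 of 896 windows of genes that fell (4.46%) and in 592 of 13517 windows of all tested genes (4.38%). The NF-kappaB type site was in 25 of 896 windows of genes that fell (2.79%), in 19 of 1161 windows of genes that rose (1.64%) and in 206 of 13517 windows of all tested genes (1.52%). These shares are a description. Of the 155 called genes that the rule for naming selected, 118 had a window. Shown are the 3 rising and 3 falling ones with the smallest adjusted p that held either motif, because they are the responding genes whose own start sites carry these letters. All are from RefSeq on GRCm38.p6, plus strand, 5′ to 3′, with the motif in capitals.
Ms4a6c, chr19:11469118-11469417, rose, a glucocorticoid core
Ms4a6c: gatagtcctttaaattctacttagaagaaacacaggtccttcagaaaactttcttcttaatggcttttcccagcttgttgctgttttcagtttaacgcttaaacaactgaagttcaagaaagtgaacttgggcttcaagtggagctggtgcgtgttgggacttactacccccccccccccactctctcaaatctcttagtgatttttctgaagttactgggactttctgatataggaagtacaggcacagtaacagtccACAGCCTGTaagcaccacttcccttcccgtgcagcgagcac
Jaml, chr9:45078933-45079232, rose, an NF-kappaB type match
Jaml: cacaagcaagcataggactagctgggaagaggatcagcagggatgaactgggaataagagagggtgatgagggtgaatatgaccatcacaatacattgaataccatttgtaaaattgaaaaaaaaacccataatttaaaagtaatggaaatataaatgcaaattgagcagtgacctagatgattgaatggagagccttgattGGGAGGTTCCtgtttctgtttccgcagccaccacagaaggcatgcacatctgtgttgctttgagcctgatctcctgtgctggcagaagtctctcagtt
Ms4a4a, chr19:11375238-11375537, rose, an NF-kappaB type match
Ms4a4a: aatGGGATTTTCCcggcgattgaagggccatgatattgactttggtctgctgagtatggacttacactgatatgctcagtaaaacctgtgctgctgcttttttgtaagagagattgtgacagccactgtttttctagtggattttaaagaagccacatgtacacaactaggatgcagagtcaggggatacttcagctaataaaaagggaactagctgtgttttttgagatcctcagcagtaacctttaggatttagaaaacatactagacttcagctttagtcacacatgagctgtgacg
Cxcl3, chr5:90785851-90786150, fell, 2 overlapping NF-kappaB type matches, 1 on each strand
Cxcl3: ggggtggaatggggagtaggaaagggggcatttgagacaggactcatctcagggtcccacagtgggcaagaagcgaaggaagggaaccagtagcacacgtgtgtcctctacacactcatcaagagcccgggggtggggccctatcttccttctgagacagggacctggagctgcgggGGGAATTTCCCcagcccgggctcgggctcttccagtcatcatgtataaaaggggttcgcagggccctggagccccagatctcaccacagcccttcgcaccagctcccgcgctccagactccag
Klf8, chrX:153237498-153237797, fell, a glucocorticoid core
Klf8: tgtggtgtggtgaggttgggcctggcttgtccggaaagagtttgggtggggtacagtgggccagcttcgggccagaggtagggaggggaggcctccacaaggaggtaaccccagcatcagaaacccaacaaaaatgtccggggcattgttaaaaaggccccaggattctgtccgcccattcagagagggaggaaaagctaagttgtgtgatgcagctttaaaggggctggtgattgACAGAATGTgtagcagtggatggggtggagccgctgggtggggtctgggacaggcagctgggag
Gbp3, chr3:142560106-142560405, fell, a glucocorticoid core
Gbp3: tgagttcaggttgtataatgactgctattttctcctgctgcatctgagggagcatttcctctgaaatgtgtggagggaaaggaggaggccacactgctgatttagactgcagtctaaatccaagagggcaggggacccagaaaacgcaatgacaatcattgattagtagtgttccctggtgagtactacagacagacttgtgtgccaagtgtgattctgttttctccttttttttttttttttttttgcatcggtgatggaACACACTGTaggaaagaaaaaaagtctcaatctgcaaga
The NF-kappaB type letters stood in windows of genes of both directions: Cxcl3 fell, and Jaml and Ms4a4a rose. The same held for the glucocorticoid core, with Ms4a6c among the genes that rose and Klf8 and Gbp3 among those that fell.

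The gene of the receptor itself did not pass. Nr3c1, the glucocorticoid receptor, had 75.7, 91.3 and 90.8 CPM with dexamethasone, against 88, 112 and 111 CPM with vehicle (log2 fold change −0.27 ± 0.10, adjusted p = 0.0904), although with the replicate block its adjusted p was 0.0017. Ncoa2, the gene of the coregulator GRIP1, had 76.4, 93.4 and 89.2 CPM, against 55.7, 71.4 and 72 CPM with vehicle, and did not pass either (adjusted p = 0.117, 0.00151 with the block). Of the list of the receptor, its chaperones and steroid-activating enzymes, 4 (20%) of 20 members tested rose, 1 (5%) fell and 15 did not pass. With the replicate block these counts were 4 and 5. The gene that stood out was Fkbp5 (GRCm38 chromosome 17, 28399094 to 28517527), whose product is a co-chaperone that lowers the receptor's affinity for hormone. It had 772, 871 and 948 CPM with dexamethasone, against 65.6, 63.7 and 63 CPM with vehicle (log2 fold change 3.75 ± 0.10, adjusted p = 6.33e-18). Every treated library lay more than 10-fold above every control library. The other members that rose moved little: the endoplasmic reticulum HSP90 paralog Hsp90b1 had a log2 fold change of 0.41 ± 0.07 and the receptor-associated phosphatase Ppp5c one of 0.22 ± 0.05.

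Among genes that glucocorticoids are known to raise in other cells, 14 (45.2%) of 31 members tested rose, 3 (9.68%) fell and 14 did not pass, where 7.66% of all genes rose and 6.03% fell. Their median log2 fold change was 0.32, against 0.01 over all genes, and 0.55 without the libraries numbered 1. Tsc22d3 (GRCm38 chromosome X, 140539528 to 140600659) encodes GILZ, a leucine zipper protein that binds NF-kappaB and AP-1. Its level was 388, 352 and 474 CPM with dexamethasone, against 65.2, 57.1 and 70.2 CPM with vehicle (log2 fold change 2.66 ± 0.13, adjusted p = 2.76e-13). Zbtb16 (GRCm38 chromosome 9, 48654297 to 48836222), the transcription factor PLZF, had 23.3, 31.4 and 35 CPM, against 0.438, 0.705 and 0.957 CPM (log2 fold change 5.40 ± 0.26, adjusted p = 2.76e-13). Zbtb16 was below 1 CPM in every vehicle library and Tsc22d3 was well expressed there. Sult1a1, a sulphotransferase, had 19.7, 29.5 and 39.1 CPM, against 1.28, 1.81 and 1.84 CPM (log2 fold change 4.16 ± 0.35, adjusted p = 1.47e-08). Anxa1, whose product annexin A1 is a known mediator of glucocorticoid action in leukocytes, was among the 3 members that fell, with 504, 429.6 and 404 CPM, against 676, 666 and 607 CPM with vehicle (log2 fold change −0.54 ± 0.10, adjusted p = 0.000488). The other members that fell were Irak3, an inhibitor of Toll-like receptor signalling, and the repressor Bcl6. The call of Bcl6 was lost without dexamethasone library 1 or 3 or vehicle library 1, 2 or 3 (largest adjusted p = 0.129). It was also lost without the libraries numbered 1 (adjusted p = 0.208).

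Dusp1, a phosphatase that switches off MAP kinases, had 144, 196 and 134 CPM with dexamethasone, against 77.3, 90.7 and 61.1 CPM with vehicle (log2 fold change 1.05 ± 0.27, adjusted p = 0.0108). The groups did not overlap, but the call was lost without dexamethasone library 2 or vehicle library 3 (largest adjusted p = 0.0733). It was also lost without the libraries numbered 1 (adjusted p = 0.0699), and the adjusted p was 2.93e-06 with the replicate block. Of the AP-1, EGR and MAPK phosphatase genes, 4 (12.1%) of 33 members tested rose, 1 (3.03%) fell and 28 did not pass, shares near those of all genes. Without the libraries numbered 1 these counts were 1 and 0 (5.58% and 4.27% of all genes in that fit), and with the block they were 6 and 6. Dusp6, which acts on ERK, had the smallest adjusted p in the list (log2 fold change 0.54 ± 0.11, adjusted p = 0.00139). Zfp36, which destabilises cytokine mRNAs, had 134, 154 and 120.2 CPM, against 109, 148 and 109 CPM with vehicle, and Nfkbia, the inhibitor of NF-kappaB, had 185, 209 and 201 CPM, against 170.5, 162 and 166 CPM. Neither passed, with adjusted p = 0.563 for Zfp36 and 0.124 for Nfkbia.

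Kruppel-like factors, zinc finger transcription factors, rose more often than they fell: 6 (46.2%) of 13 members tested rose, 1 (7.69%) fell and 6 did not pass, with a median log2 fold change of 0.32. With the block the counts were 6 and 3. Klf9 (GRCm38 chromosome 19, 23141226 to 23168134) had 66.9, 65.9 and 69.2 CPM with dexamethasone, against 4.81, 4.75 and 4.65 CPM with vehicle (log2 fold change 3.83 ± 0.14, adjusted p = 2.50e-15). Its values agreed within a few percent among libraries of a group. Klf4 reached 45.2, 42.8 and 42.2 CPM, against 16.2, 15.4 and 13.9 CPM, and Klf13 reached 230.3, 282 and 288 CPM, against 134, 152 and 145 CPM. Klf8, whose start-site window is printed above, was the member that fell, with 1.99, 2.5 and 2.18 CPM, against 3.83, 4.54 and 4.24 CPM with vehicle (adjusted p = 0.00113).

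Circadian clock genes moved in both directions, and 3 (15.8%) of 19 members tested rose, 6 (31.6%) fell and 10 did not pass. Per1, a repressor of the clock that is itself a receptor target, had 103, 126 and 116 CPM with dexamethasone, against 26.4, 32.9 and 25.7 CPM with vehicle (log2 fold change 2.02 ± 0.11, adjusted p = 2.60e-12). Arntl, which encodes the activator BMAL1, rose to 18.2, 23.4 and 27.9 CPM, against 13.6, 13.5 and 15.6 CPM. The repressor Nfil3 was the third that rose, and its call was lost without dexamethasone library 1 or vehicle library 2 or 3 (largest adjusted p = 0.0913). It was also lost without the libraries numbered 1 (adjusted p = 0.107). The falls included the PAR-domain activators Dbp (3.58, 3.64 and 4.66 CPM, against 8.35, 7.91 and 8.64 CPM) and Tef (21.1, 23.4 and 25.1 CPM, against 45.9, 51.4 and 52.3 CPM), and the nuclear receptor Nr1d2 (14.7, 16.6 and 15.3 CPM, against 28.4, 36.7 and 33.3 CPM). None of the 3 overlapped between groups. Per3 and Cry2 were among the others that fell, the call of Cry2 being lost without the libraries numbered 1 (adjusted p = 0.0592), while Per2 did not pass (adjusted p = 0.0813).

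The list of inhibitors of PI3K and mTOR signalling also holds FOXO factors and Irs2, an adaptor of insulin signalling that is not an inhibitor. The list gave large rises among mostly small changes: 6 (24%) of 25 members tested rose, 1 (4%) fell and 18 did not pass. Irs2 was among the members that rose. Without the libraries numbered 1 the counts were 6 and 0, and with the block 6 and 2. Ddit4 (REDD1), which inhibits mTORC1, had 70.02, 112 and 156 CPM with dexamethasone, against 9.66, 4.38 and 5.5 CPM with vehicle (log2 fold change 4.13 ± 0.43, adjusted p = 6.05e-07). Treated library 1 was the lowest treated library and control library 1 the highest control library. Pik3ip1, a membrane protein that inhibits PI3K, had 4.78, 4.52 and 7.09 CPM, against 0.766, 0.521 and 0.717 CPM (log2 fold change 3.03 ± 0.26, adjusted p = 7.29e-09). Deptor, a subunit that inhibits mTOR, and Pik3r1, the p85 regulatory subunit, rose by log2 fold changes of 1.21 ± 0.20 and 0.57 ± 0.09, and Trp53inp1, a stress-response protein from the list of cell cycle inhibitors, reached 78.7, 78.5 and 104 CPM, against 28.8, 32.2 and 37.1 CPM.

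**Figure D3:**
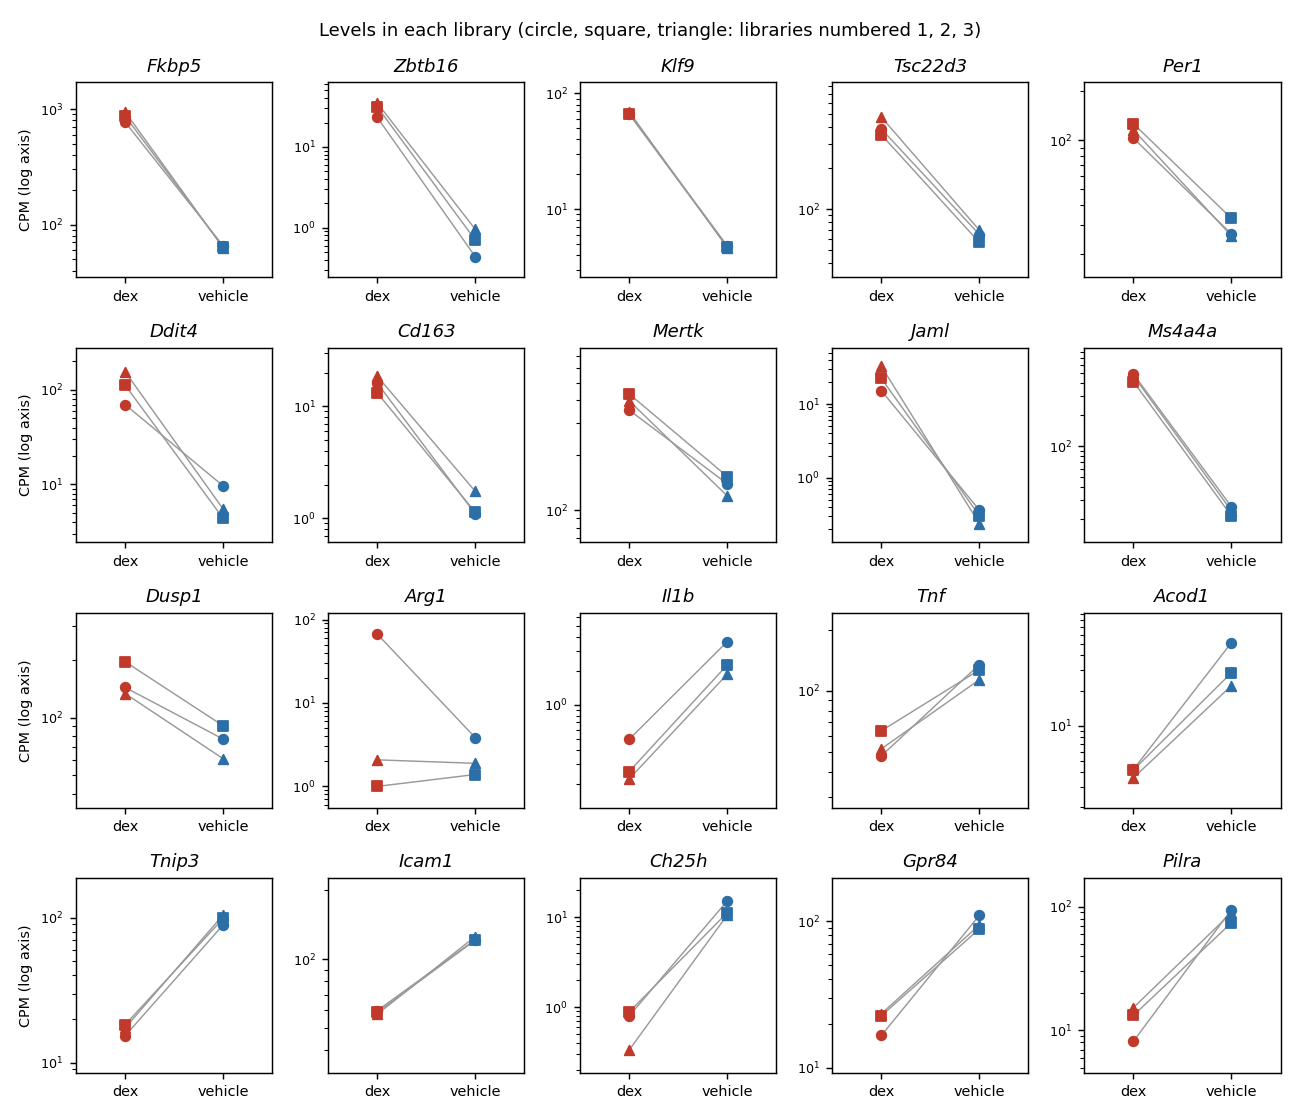
Each panel gives 1 gene's CPM on a log axis in the 3 dexamethasone and 3 vehicle libraries, with lines joining libraries of the same number. Fkbp5, Klf9, Ms4a4a and the other genes of the upper panels are higher in all 3 dexamethasone libraries, Tnip3, Icam1, Ch25h, Gpr84 and Pilra are lower in all 3, and Arg1 is high in dexamethasone library 1 only.

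Of the MS4A family, small proteins with 4 membrane-spanning segments whose genes lie in a cluster on chromosome 19, most members tested rose. Of 14 members listed, 10 passed the filter on low counts, and 7 (70%) of 10 members tested rose, 0 fell and 3 did not pass. The median log2 fold change of the 10 was 1.98, against 0.01 over all genes, and with the block the counts were 7 and 2. Ms4a4a (GRCm38 chromosome 19, 11375523 to 11392790) had 491, 416 and 473 CPM with dexamethasone, against 26.1, 21.3 and 23.8 CPM with vehicle (log2 fold change 4.28 ± 0.25, adjusted p = 3.08e-11). Its levels were more than 10 times those of controls in all 3 libraries. Ms4a6c (GRCm38 chromosome 19, 11469366 to 11482192) had 564, 621 and 668 CPM, against 178, 184 and 196 CPM (log2 fold change 1.73 ± 0.07, adjusted p = 3.48e-14). Ms4a6b had 293, 357 and 429 CPM, against 66.5, 65.7 and 81.3 CPM, and Ms4a6d had 714, 665 and 698 CPM, against 273, 248 and 253 CPM. Ms4a4b, Ms4a4c and Ms4a8a rose at low levels, none above 7.39 CPM, and the call of Ms4a8a was lost without dexamethasone library 2 or 3 or vehicle library 1, 2 or 3 (largest adjusted p = 0.0917). Ms4a7, an abundant member, had 444, 368 and 379 CPM, against 525, 447 and 422 CPM, and did not pass (adjusted p = 0.185), nor did Ms4a14 or Ms4a3. The family holds close paralogs, so how reads were divided among Ms4a4b, Ms4a4c, Ms4a6b and Ms4a6c is less certain.

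Genes for taking up dying cells and other cargo rose more often than they fell. Of the efferocytosis and scavenging list, 13 (43.3%) of 30 members tested rose, 4 (13.3%) fell and 13 did not pass, with a median log2 fold change of 0.25. Among receptors, Mertk, a kinase that recognises dying cells through bridging proteins, had 354, 434 and 398 CPM with dexamethasone, against 139, 153 and 119 CPM with vehicle (log2 fold change 1.53 ± 0.12, adjusted p = 1.17e-09). Gas6, one of its bridging ligands, was also higher, at 649.8, 786 and 733 CPM, against 528, 531 and 533 CPM. The scavenger receptor Stab1 had 4076, 5354 and 5119 CPM, against 2250.5, 2418 and 2508 CPM (log2 fold change 1.02 ± 0.13, adjusted p = 3.18e-06). Mrc1, the mannose receptor, had 1857, 1289 and 1414 CPM, against 507, 586 and 589 CPM (log2 fold change 1.44 ± 0.21, adjusted p = 3.27e-05), and its highest treated value was that of library 1. None of these receptors overlapped between groups. Havcr2 (TIM-3), which binds phosphatidylserine, rose to 159, 148 and 149 CPM, against 97.4, 106 and 99.2 CPM. In the other direction, the engulfment receptor Megf10 had 1.89, 1.84 and 0.665 CPM, against 5.14, 7.78 and 7.86 CPM (log2 fold change −2.25 ± 0.53, adjusted p = 0.0045), and the scavenger receptor Scarf1 also fell. The other members that fell were Mfge8, a bridging protein for other receptors, and Tgm2. Pros1, another bridging ligand of Mertk, did not pass.

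In the complement list, 5 (26.3%) of 19 members tested rose, 1 (5.26%) fell and 13 did not pass (6 and 3 with the block). The subunits of C1q, which tags dying cells, moved together: C1qc had 1212, 1284 and 1248 CPM, against 850.3, 859 and 905 CPM (log2 fold change 0.52 ± 0.08, adjusted p = 4.27e-05), and C1qb had 1549, 1619.7 and 1682 CPM, against 1105, 1061 and 1169 CPM. The third subunit gene, C1qa, had a log2 fold change of 0.48 ± 0.13, and its call was lost without dexamethasone library 3 or vehicle library 2 (largest adjusted p = 0.0582). Cfp, properdin, was the member that fell, by a log2 fold change of −0.42 ± 0.10, and its call was lost without the libraries numbered 1 (adjusted p = 0.119). Among lysosomal enzymes and membrane proteins, 12 (25%) of 48 members tested rose, 2 (4.17%) fell and 34 did not pass, and 20 and 4 did so with the block. The protease legumain, Lgmn, had 2159, 2135 and 2110.2 CPM, against 1439, 1399 and 1423 CPM (log2 fold change 0.59 ± 0.07, adjusted p = 1.59e-06). The cholesterol transporter Npc1 was also higher, at 775, 736 and 657 CPM, against 479, 557 and 493 CPM. The acid lipase Lipa fell to 879, 913 and 908 CPM, against 1141, 1261 and 1219 CPM, and the protease Ctsc was the other lysosomal gene that fell.

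For haem and iron, 3 (12.5%) of 24 members tested rose, 3 (12.5%) fell and 18 did not pass (3 and 1 without the libraries numbered 1). The haemoglobin scavenger receptor Cd163 had 16.2, 13.2 and 18.6 CPM, against 1.09, 1.13 and 1.74 CPM (log2 fold change 3.59 ± 0.25, adjusted p = 1.80e-10). Hp, haptoglobin, which Cd163 binds with haemoglobin, had 33.2, 21.2 and 21.9 CPM, against 14.5, 4.75 and 3.21 CPM (log2 fold change 1.77 ± 0.43, adjusted p = 0.00694), with library 1 highest in both groups. Without vehicle library 1 the log2 fold change of Hp was 2.67. Hp is also on the list of monocyte markers, whose sums were 418, 176 and 138 CPM with dexamethasone and 153, 61.6 and 42 CPM with vehicle. The monocyte sum was led by Chil3, which did not pass (adjusted p = 0.0932), and its part in the change of Hp was not tested. Hmox1, which breaks down haem, had 1670.0, 1333 and 1376 CPM, against 1239, 847 and 881 CPM (log2 fold change 0.56 ± 0.15, adjusted p = 0.0106), and its call was lost without dexamethasone library 1 or vehicle library 2 or 3 (largest adjusted p = 0.0715). The iron transporter Slc11a2 fell to 92.6, 103 and 85.8 CPM, against 204, 184 and 167 CPM (log2 fold change −0.98 ± 0.12, adjusted p = 1.58e-06).

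Inflammatory mediators fell more often than they rose in these cells, for which the labels name no microbial stimulus. In the proinflammatory list, 22 of 30 members passed the filter on low counts, and 1 (4.55%) of 22 members tested rose, 7 (31.8%) fell and 14 did not pass, with a median log2 fold change of −0.53. With the block the counts were 3 and 12, and without the libraries numbered 1 they were 2 and 6. Acod1, which makes itaconate, had 4.23, 4.19 and 3.58 CPM with dexamethasone, against 51.6, 28.5 and 22.1 CPM with vehicle (log2 fold change −3.09 ± 0.39, adjusted p = 4.77e-06). Il1b, the cytokine interleukin 1 beta, had 0.498, 0.257 and 0.222 CPM, against 3.65, 2.27 and 1.88 CPM (log2 fold change −3.02 ± 0.42, adjusted p = 1.44e-05). Both were highest in library 1 among vehicle libraries. Tnf had 47.9, 63.6 and 51.8 CPM, against 135, 127 and 114 CPM (log2 fold change −1.20 ± 0.20, adjusted p = 0.000145). Il1rn, the interleukin 1 receptor antagonist, fell to 29.4, 19.2 and 11 CPM, against 101, 62.2 and 37.2 CPM, and Ebi3, a cytokine subunit, to 42.5, 59.4 and 58.1 CPM, against 81.8, 89.1 and 104 CPM. Il18 was the member that rose. Il6 was left out by the filter, at no more than 0.0995 CPM with dexamethasone and 0.292 CPM with vehicle, and Il10, an anti-inflammatory cytokine, had 5.13, 4.38 and 5.47 CPM, against 5.8, 6.1 and 6.32 CPM, and did not pass (adjusted p = 0.301).

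NF-kappaB genes fell more often than they rose: 2 (6.67%) of 30 members tested rose, 13 (43.3%) fell and 15 did not pass, with a median log2 fold change of −0.24. The feedback inhibitor Tnip3 (GRCm38 chromosome 6, 65525313 to 65634040) had 15.3, 18.3 and 17.4 CPM, against 89.3, 98.9 and 105 CPM (log2 fold change −2.52 ± 0.12, adjusted p = 2.76e-13). Icam1, an adhesion molecule and classical NF-kappaB target, had 59.6, 58.6 and 57.5 CPM, against 121, 121 and 125 CPM (log2 fold change −1.07 ± 0.07, adjusted p = 3.81e-11). The spread within each group was small for both. The genes of the subunits Nfkb1, Nfkb2 and Relb fell as well, so the falling members included subunits, inhibitors (Tnip1, Nfkbie, Nfkbid and Nfkbiz) and targets. The calls of Nfkbie and Nfkbiz were lost without the libraries numbered 1 (adjusted p = 0.0524 and 0.0799). N4bp1, which restrains NF-kappaB signalling, rose to 189, 181 and 186 CPM, against 88.7, 101 and 101 CPM, and Birc3 was the other member that rose.

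Chemokine ligands followed the same direction, with 1 (4.17%) of 24 members tested that rose, 9 (37.5%) that fell and 14 that did not pass (2 and 10 with the block). Cxcl3, a neutrophil attractant whose start-site window is printed above, had 0.299, 0.331 and 0.296 CPM, against 4.19, 1.53 and 2.12 CPM (log2 fold change −3.06 ± 0.44, adjusted p = 2.28e-05). Ccl22, which attracts regulatory T cells, had 0.348, 0.184 and 0.037 CPM, against 5.29, 2.7 and 2.39 CPM (log2 fold change −4.25 ± 0.54, adjusted p = 4.33e-06). The most abundant of the 4 ligands with the smallest adjusted p was Cxcl16, which had 163, 198 and 182 CPM, against 353, 354 and 365 CPM (log2 fold change −0.98 ± 0.12, adjusted p = 4.05e-06). The member that rose, Ccl24, stayed at or below 0.998 CPM. Receptors for chemoattractants and metabolites moved both ways: 6 (20%) of 30 members tested rose, 8 (26.7%) fell and 16 did not pass. Gpr84, a receptor for medium-chain fatty acids, had 16.6, 22.6 and 23.3 CPM, against 109.6, 88.6 and 94.3 CPM (log2 fold change −2.22 ± 0.25, adjusted p = 8.30e-07). Hcar2, the receptor for niacin and beta-hydroxybutyrate, had 0.995, 1.07 and 0.961 CPM, against 8.57, 5.67 and 5.3 CPM (log2 fold change −2.68 ± 0.32, adjusted p = 1.67e-06). Gpr35 rose to 17.8, 14 and 12.6 CPM, against 4.85, 3.49 and 3.83 CPM, and the UDP-sugar receptor P2ry14 rose to 15.7, 16.7 and 21.9 CPM, against 7.88, 9.87 and 10.2 CPM. Cx3cr1, the fractalkine receptor, had 18.1, 89.3 and 88.3 CPM, against 134, 226 and 250.3 CPM, and passed narrowly (adjusted p = 0.0463). Its call was lost without dexamethasone library 1, 2 or 3 or vehicle library 2 or 3 (largest adjusted p = 0.148) and without the libraries numbered 1 (adjusted p = 0.135).

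Pattern recognition receptors moved in both directions: 9 (25.7%) of 35 members tested rose, 5 (14.3%) fell and 21 did not pass. The 3 with the smallest adjusted p were endosomal receptors for RNA, and all rose. Tlr7 had 261, 349.6 and 365 CPM, against 109, 125 and 119 CPM (log2 fold change 1.47 ± 0.14, adjusted p = 3.58e-08), and Tlr8 had 214, 229 and 239.7 CPM, against 77.4, 119.8 and 111 CPM (log2 fold change 1.15 ± 0.20, adjusted p = 0.000251). Tlr13, which senses bacterial ribosomal RNA, had 628, 752 and 751 CPM, against 449, 529 and 504 CPM. The endosomal receptors Tlr3, for double-stranded RNA, and Tlr9, for DNA, did not pass (adjusted p = 0.764 and 0.882). At the cell surface, Tlr2, which senses bacterial lipoproteins, had 58.9, 107 and 93.8 CPM, against 258, 247 and 231 CPM (log2 fold change −1.50 ± 0.30, adjusted p = 0.00142). Other surface receptors differed: the flagellin receptor Tlr5 rose to 3.53, 5.11 and 8.35 CPM, against 1.24, 1.38 and 1.71 CPM, Tlr6 also rose, and Tlr4, the lipopolysaccharide receptor, did not pass (log2 fold change 0.23 ± 0.09). The kinase Irak2 fell to 47.1, 51.8 and 42 CPM, against 71.4, 69.8 and 61.6 CPM with vehicle.

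The paired Ig-like, TREM, CD300 and Fc receptors also went both ways: 8 (19.5%) of 41 members tested rose, 11 (26.8%) fell and 22 did not pass, and 7 and 5 did so without the libraries numbered 1. Pilra, an inhibitory receptor, had 8.16, 13.2 and 15.3 CPM, against 94.8, 74.2 and 89.2 CPM (log2 fold change −2.81 ± 0.30, adjusted p = 5.98e-07). Its activating partners fell with it: Pilrb1 had 0.995, 1.4 and 1.44 CPM, against 9.01, 6.71 and 8.1 CPM, and Pilrb2 had 1.54, 2.17 and 1.96 CPM, against 9.01, 8.64 and 8.2 CPM. These genes are near-identical in parts, so the division of reads among them is uncertain. The activating Fc receptor Fcgr3 rose to 615, 632 and 691 CPM, against 319, 316 and 331 CPM (log2 fold change 1.00 ± 0.09, adjusted p = 3.46e-08), and the sialic acid receptor Siglec1 rose to 175, 191 and 207 CPM, against 101, 96.7 and 95.3 CPM.

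Interferon-stimulated genes had a median log2 fold change of −0.36 with few calls: 2 (5%) of 40 members tested rose, 3 (7.5%) fell and 35 did not pass, shares near those of all genes. With the block, 2 rose and 13 fell. Ifi204, a cytosolic DNA sensor, rose to 99.8, 98.4 and 114 CPM, against 39.3, 42 and 52.5 CPM (log2 fold change 1.22 ± 0.12, adjusted p = 4.31e-08), and the guanylate-binding protein gene Gbp7 rose to 13.9, 16.2 and 21.5 CPM, against 7.8, 8.43 and 9.91 CPM. Its relative Gbp3 fell to 4.53, 5.04 and 5.28 CPM, against 6.64, 8.0 and 9.19 CPM. The chemokine Cxcl10 fell to 0.199, 0.883 and 0.222 CPM, against 2.08, 2.18 and 2.12 CPM. Ifit2, the third member that fell, lost its call without dexamethasone library 1 or 3 or vehicle library 3 (largest adjusted p = 0.0877). It also lost it without the libraries numbered 1 (adjusted p = 0.0663). For MHC class II presentation and costimulation, 1 (4.55%) of 22 members tested rose, 3 (13.6%) fell and 18 did not pass. The class II genes H2-Aa, H2-Ab1 and H2-Eb1 did not pass (adjusted p = 0.888, 0.803 and 0.88). The costimulatory receptor Cd40 fell to 4.98, 4.3 and 3.99 CPM, against 11.2, 8.86 and 9.7 CPM, and Cd276 fell to 9.5, 9.38 and 8.2 CPM, against 16.5, 21.2 and 19.8 CPM. Ciita, the class II transactivator gene, fell at a low level, to 0.348, 0.184 and 0.111 CPM, against 0.547, 0.521 and 0.991 CPM (log2 fold change −1.73 ± 0.51, adjusted p = 0.0236). Its call was lost without dexamethasone library 2 or 3 or vehicle library 3 (largest adjusted p = 0.141).

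Lipid mediator and sterol genes contained one of the deepest falls. Ch25h, which makes 25-hydroxycholesterol, had 0.796, 0.883 and 0.333 CPM with dexamethasone, against 15.2, 11.2 and 10.6 CPM with vehicle (log2 fold change −4.21 ± 0.42, adjusted p = 1.45e-07). No treated library exceeded 0.883 CPM. Of the oxysterol, LXR and lipid uptake list, 5 (17.9%) of 28 members tested rose, 5 (17.9%) fell and 18 did not pass. Soat1, which esterifies cholesterol, rose to 560.0, 564 and 528 CPM, against 417, 438 and 379 CPM, and the nuclear receptor Rxra rose to 277, 313 and 310.2 CPM, against 199, 212 and 205 CPM. Among eicosanoid genes, 5 (21.7%) of 23 members tested rose, 6 (26.1%) fell and 12 did not pass (4 and 3 without the libraries numbered 1). The leukotriene-forming lipoxygenase Alox5 fell to 5.82, 5.85 and 8.24 CPM, against 12.4, 9.81 and 12.8 CPM (log2 fold change −0.81 ± 0.14, adjusted p = 0.000313), while Pla2g7, which breaks down platelet-activating factor, rose to 637, 743 and 839.8 CPM, against 329.5, 290.1 and 274 CPM (log2 fold change 1.31 ± 0.14, adjusted p = 1.88e-07). The prostaglandin receptor Ptger2 rose to 26.7, 25.3 and 26.5 CPM, against 15.9, 14.4 and 13.6 CPM. Genes of eicosanoid synthesis thus did not share a direction.

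Glycolysis was the list of central metabolism with calls in 1 direction. That list covers glucose uptake too, and also holds Hif1a, Bnip3, Egln3, Vegfa and Pdk1. In it 0 of 27 members tested rose, 8 (29.6%) fell and 19 did not pass (0 and 14 with the block). The median log2 fold change was −0.24. Vegfa and Pdk1, which are not glycolytic enzymes, were among the members that fell. Aldoc, an aldolase, had 13.1, 20.4 and 22.9 CPM, against 41.1, 41.2 and 44.6 CPM (log2 fold change −1.16 ± 0.15, adjusted p = 8.39e-06), the lactate exporter Slc16a3 had 61.9, 62.2 and 67.3 CPM, against 128, 101 and 115 CPM, and the triosephosphate isomerase gene Tpi1 had 427, 394 and 421 CPM, against 583, 513 and 545 CPM. In fatty acid oxidation, 2 (7.14%) of 28 members tested rose, 1 (3.57%) fell and 25 did not pass, where 7.66% of all genes rose and 6.03% fell. With the block 5 rose and 2 fell, where 12.2% of all genes rose and 9.87% fell. Without the libraries numbered 1, 3 rose and 0 fell, where 5.58% of all genes rose and 4.27% fell. The list was led by the phosphatidate phosphatase gene Lpin1 with 58.4, 57.8 and 62.5 CPM, against 24.3, 30.4 and 27.9 CPM. The integrated stress response gave 3 (11.1%) of 27 members tested that rose, 2 (7.41%) that fell and 22 that did not pass (4 and 4 with the block, 4 and 5 without the libraries numbered 1). Beside these counts stand the same shares of all genes. Oxidative phosphorylation subunits (37 tested), cytosolic ribosomal proteins (52) and cholesterol synthesis genes (24) gave no call by edgeR's quasi-likelihood test. With the block the counts were 2, 0 and 1 members that fell in these lists. Their median log2 fold changes were −0.04, 0.03 and −0.05. For cell cycle genes 0 of 46 members tested rose, 4 (8.7%) fell and 42 did not pass, with a median of −0.20. The share that fell was near the 6.03% of all genes. With the block 1 rose and 12 fell, and without the libraries numbered 1, 0 rose and 8 fell. Of all genes, 9.87% fell with the block and 4.27% without those libraries. The 4 that fell, Ccnd1, Tk1, Aurka and Ccne1, were also called with the block (adjusted p = 1.50e-05, 0.00122, 0.00394 and 0.0152). Without the libraries numbered 1 they were called too (adjusted p = 0.0173, 0.0124, 0.0282 and 0.0464). They did not keep the call when libraries were left out singly. It was lost for Ccnd1 without dexamethasone library 3 or vehicle library 3 (largest adjusted p = 0.0677), for Tk1 without dexamethasone library 1 or 2 or vehicle library 3 (0.123). For Aurka it was lost without dexamethasone library 1 or 2 or vehicle library 2 or 3 (0.153) and for Ccne1 without dexamethasone library 2 or 3 or vehicle library 1, 2 or 3 (0.159).

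**Figure D4:**
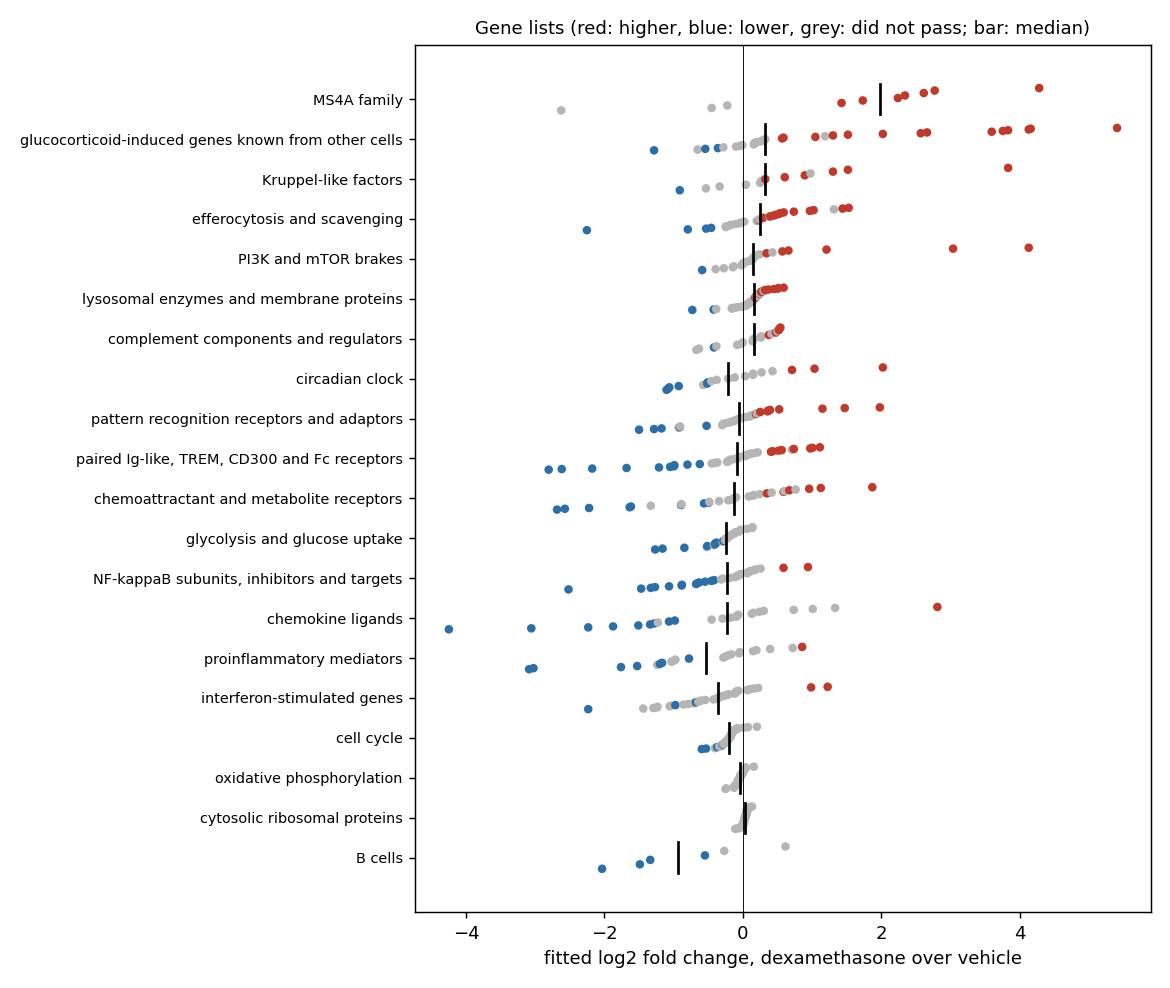
Each row is 1 gene list, each point 1 tested member at its fitted log2 fold change of dexamethasone over vehicle (red rose, blue fell, grey did not pass), and the bar is the list's median. The MS4A family has the highest median (1.98) and B cell markers the lowest (−0.94) of the lists drawn, and ribosomal protein genes sit close to 0.

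Adhesion and matrix genes included one very large fold rise. Jaml (GRCm38 chromosome 9, 45079183 to 45108534), an adhesion molecule of leukocytes, had 15.2, 22.3 and 32.5 CPM with dexamethasone, against 0.365, 0.306 and 0.239 CPM with vehicle (log2 fold change 6.25 ± 0.33, adjusted p = 2.27e-12). Treated library 1 was the lowest of its group and still far above every control library. In the adhesion list, 6 (17.6%) of 34 members tested rose, 4 (11.8%) fell and 24 did not pass. Among them Tns1, a tensin that links integrins to actin, rose to 331, 386 and 398 CPM, against 84.1, 98.9 and 90.02 CPM, and the tetraspanin Cd9 fell to 195, 178 and 133 CPM, against 345, 341 and 279 CPM, as did the hyaluronan receptor Cd44. In the matrix list 9 (30%) of 30 members tested rose, 4 (13.3%) fell and 17 did not pass (10 and 9 with the block). Ecm1, extracellular matrix protein 1, rose to 383, 410.0 and 453 CPM, against 146, 115 and 115 CPM (log2 fold change 1.73 ± 0.11, adjusted p = 2.34e-11), and Mmp12, macrophage elastase, fell to 149, 54.4 and 46.7 CPM, against 443, 301 and 236 CPM (log2 fold change −1.98 ± 0.44, adjusted p = 0.00336).

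The coagulation and fibrinolysis list gave 3 (13%) of 23 members tested that rose, 3 (13%) that fell and 17 that did not pass. These counts became 6 and 4 with the block and 5 and 2 without the libraries numbered 1. The members that rose were Thbd, F13a1 and Prss16, a serine protease not known to act in coagulation. F13a1, the catalytic subunit of clot-stabilising factor XIII, had 279, 239 and 265 CPM, against 47.8, 21 and 17.9 CPM (log2 fold change 3.18 ± 0.43, adjusted p = 1.68e-05). Thbd, thrombomodulin, rose to 66.8, 63.2 and 66.7 CPM, against 33.9, 27.5 and 31.2 CPM. Plau, the plasminogen activator urokinase, fell to 203, 145 and 110.4 CPM, against 575, 468 and 386 CPM (log2 fold change −1.64 ± 0.30, adjusted p = 0.000566). Control library 1 was the highest control library for F13a1.

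Receptors for cytokines included strong rises, in a list where 7 (19.4%) of 36 members tested rose, 6 (16.7%) fell and 23 did not pass (11 and 9 with the block). Lifr, the receptor of leukaemia inhibitory factor, had 30.7, 48.7 and 60.6 CPM, against 4.3, 5.88 and 7.72 CPM (log2 fold change 2.97 ± 0.26, adjusted p = 1.92e-08). Il6st, the gp130 subunit it signals with, rose to 111, 101 and 102 CPM, against 66.7, 71.2 and 70.4 CPM (log2 fold change 0.59 ± 0.09, adjusted p = 4.99e-05). Il15ra, an interleukin 15 receptor chain, rose to 7.91, 7.61 and 8.46 CPM, against 2.08, 2.3 and 1.95 CPM (log2 fold change 1.92 ± 0.19, adjusted p = 6.36e-08). Il4ra, the interleukin 4 receptor chain, rose to 403, 425 and 457 CPM, against 312, 268 and 303 CPM. Of cytokine signalling inhibitors, 3 (14.3%) of 21 members tested rose, 4 (19%) fell and 14 did not pass (5 and 4 with the block, 1 and 4 without the libraries numbered 1). Il18bp, which traps interleukin 18, rose to 14.1, 14.3 and 15.6 CPM, against 8.61, 7.48 and 6.15 CPM, and Socs3 fell to 13.9, 14.3 and 14.2 CPM, against 30.1, 26 and 22 CPM.

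Further large rises outside these lists were in Rab15, a small GTPase of endosomes, with 31.2, 7.72 and 7.13 CPM, against 0.547, 0.552 and 0.478 CPM (log2 fold change 4.84 ± 0.71, adjusted p = 4.57e-05). Others were Adam22, a catalytically inactive ADAM protein, with 9.65, 10.6 and 9.31 CPM, against 1.17, 1.2 and 0.888 CPM (log2 fold change 3.18 ± 0.20, adjusted p = 3.08e-11), and Hhipl1 (log2 fold change 2.66 ± 0.39). Rab15 was about 4 times higher in treated library 1 than in the other treated libraries, and without the libraries numbered 1 its log2 fold change was 3.83. Further large falls were in Dio2, the deiodinase that activates thyroid hormone, with 2.14, 2.17 and 1.26 CPM, against 7.29, 9.96 and 5.57 CPM (log2 fold change −2.04 ± 0.25, adjusted p = 2.18e-06), and in the amino acid transporter Slc36a2 and the potassium channel subunit Kcnk12, whose log2 fold changes were −2.10 ± 0.18 and −2.01 ± 0.53. Kcnk12 had an adjusted p of 0.011, and its call was lost without the libraries numbered 1 (adjusted p = 0.0501). The rule that chose these genes asked for no overlap between groups.

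The alternative activation list, of genes best known from interleukin 4, gave 5 (20.8%) of 24 members tested that rose, 2 (8.33%) that fell and 17 that did not pass. Its median log2 fold change was 0.53 with all libraries and 0.00 without those numbered 1. Arg1, arginase, had 67.1, 0.993 and 2.07 CPM with dexamethasone, against 3.83, 1.38 and 1.88 CPM with vehicle, and did not pass (adjusted p = 0.214). Its level was high in dexamethasone library 1 and at control level in the other treated libraries. The lectin Mgl2 had the same shape, with 7.66, 0.0736 and 0.148 CPM, against 0.0729, 0.245 and 0.171 CPM (adjusted p = 0.251). Dexamethasone library 1 was also the library with the highest stromal sum, 852 CPM, and a part of it in these values was not tested.

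Of 12 B cell markers, 6 were tested: 0 of 6 members tested rose, 4 (66.7%) fell and 2 did not pass (1 and 5 with the block). The sum of the list was 241, 222 and 198 CPM with dexamethasone and 528, 567 and 577 CPM with vehicle, most of it the receptor Cd72 and the signalling adaptor Blnk, which macrophages also make. Cd72 had 107, 85.5 and 76 CPM, against 336, 371 and 392.05 CPM (log2 fold change −2.03 ± 0.12, adjusted p = 6.74e-12). Blnk had 100.3, 109.9 and 101 CPM, against 143, 158 and 153 CPM (log2 fold change −0.55 ± 0.10, adjusted p = 0.000265). Cd79b, a subunit of the B cell receptor, fell at a low level, to 1.89, 1.43 and 2.03 CPM, against 4.81, 4.78 and 5.43 CPM (log2 fold change −1.49 ± 0.21, adjusted p = 2.18e-05). Ighm, the heavy chain of immunoglobulin M, fell to 4.78, 2.98 and 3.58 CPM, against 13.6, 7.02 and 7.96 CPM (log2 fold change −1.34 ± 0.33, adjusted p = 0.00666). The part of B cells in these falls was not tested. Of other defining genes, Cd79a, Ms4a1 and Pax5 were at or below 0.255 CPM in every library and Vpreb3 at 0. For any list of another cell type, fewer cells of that type and less RNA per cell cannot be told apart in bulk RNA. T and NK cell markers summed to 19.6, 20.7 and 11.1 CPM, against 31.6, 28.9 and 19.5 CPM, mostly Cd4, with Gzma and Prf1 at 0, and erythroid markers to at most 0.299 CPM, against at most 0.328 CPM. Macrophage identity genes gave 3 (15%) of 20 members tested that rose, 4 (20%) that fell and 13 that did not pass. With the block the counts were 5 and 5, and without the libraries numbered 1 they were 2 and 2. Csf1r, the receptor of the growth factor CSF1, had 1846, 2216 and 2329.8 CPM, against 1917, 2184 and 2380.1 CPM, and did not pass (adjusted p = 0.941). The calcium-binding protein gene Aif1 fell to 56.5, 61.3 and 74.6 CPM, against 124, 107 and 131 CPM, and the leukocyte phosphatase gene Ptprc to 252, 291 and 308 CPM, against 352, 399 and 399.9 CPM.

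Much of the response was also seen in knockout macrophages, which share no library with the wild-type comparison. There 2684 genes were called (18.4%), of which 1328 rose (9.1%) and 1356 fell (9.29%). Of these, 1405 were called in the same direction in wild type, which is 70.4% of the 1996 wild-type calls and 52.3% of the knockout calls, and 3 were called in opposite directions. Of the 470 wild-type calls of at least 2-fold, 347 were called in the same direction in knockout. The difference between the genotypes was tested as an interaction, knockout response minus wild-type response. It was called for 27 genes (0.185%), 7 with a positive (0.048%) and 20 with a negative difference (0.137%). Of the 27, 21 were among the wild-type calls, whose libraries the interaction also uses, and there were 880 genes at an unadjusted p under 0.05. Without the wild-type libraries numbered 1 the count was 3, with the block 214, and without 1 library 15 to 36. Ms4a4a had 656 ± 54.9 CPM with dexamethasone and 153 ± 64.6 CPM with vehicle in knockout cells (SD, n = 4 each), against 459.9 ± 39.3 CPM with dexamethasone and 23.7 ± 2.39 CPM with vehicle in wild-type cells (SD, n = 3 each), and its fold change was smaller in knockout (interaction −2.17 ± 0.30, adjusted p = 0.000862). Zbtb16 had 17.6 ± 2.15 CPM with dexamethasone and 1.22 ± 0.301 CPM with vehicle in knockout cells, against 29.9 ± 6.0 CPM and 0.70 ± 0.26 CPM in wild-type cells (interaction −1.56 ± 0.33, adjusted p = 0.0473). Both genes rose in both genotypes, by a smaller fold in knockout, where the vehicle mean of each was higher. Without the wild-type libraries numbered 1 the interaction was not called for either (adjusted p = 0.0586 for Ms4a4a and 0.0825 for Zbtb16). Fkbp5 had a log2 fold change of 3.51 ± 0.09 in knockout, against 3.75 ± 0.10 in wild type, Jaml one of 7.35 ± 0.28, against 6.25 ± 0.33, and Tnip3 one of −2.89 ± 0.11, against −2.52 ± 0.12, and the interaction did not pass for any of these 3.

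**Figure D5:**
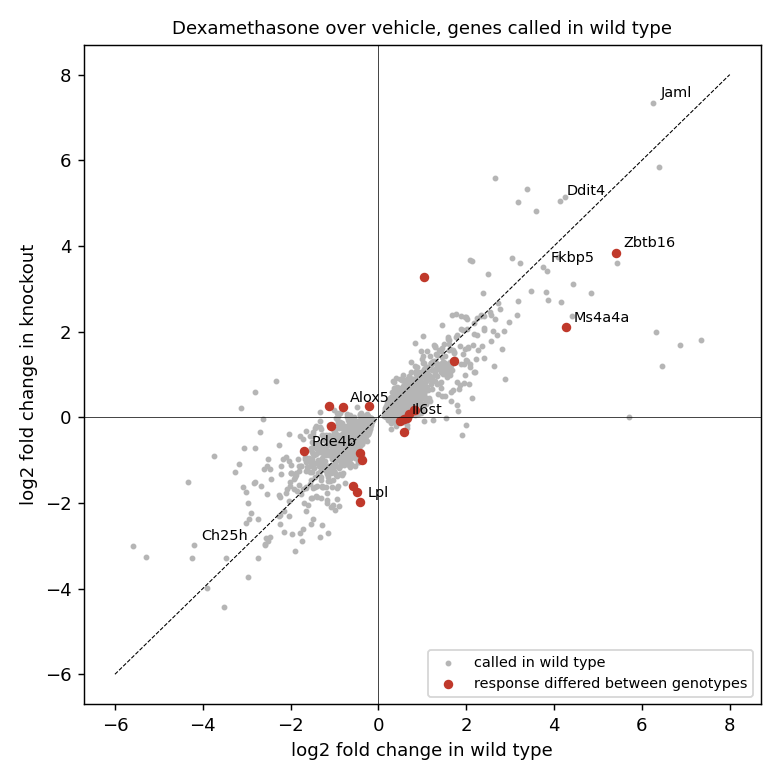
Each point is 1 of the genes called in wild type, with its fitted log2 fold change of dexamethasone over vehicle in wild type on the horizontal axis and in knockout on the vertical axis, and the dashed line marks equal values. Red points are the 21 whose response differed between genotypes, among them Ms4a4a and Zbtb16 below the line on the right.

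Dexamethasone at 100 nM was also tested directly against corticosterone, the main natural glucocorticoid of mice, at 500 nM in wild-type cells. The doses differ, so this compares these treatments and not the compounds at matched dose. Of 14589 genes, 27 were called (0.185%), 22 higher (0.151%) and 5 lower (0.0343%) with dexamethasone. All 27 were among the 1996 genes that dexamethasone changed against vehicle, but both comparisons use the same dexamethasone libraries. An unadjusted p under 0.05 was found for 541 genes. With the block the count was 137 and without the libraries numbered 1 it was 14. It was 10 without corticosterone library 1, 16 without corticosterone library 2 and 15 without dexamethasone library 3. Jaml had 23.3 ± 8.69 CPM with dexamethasone, 4.33 ± 1.46 CPM with corticosterone and 0.303 ± 0.0628 CPM with vehicle (SD, n = 3 each), a difference between the steroids of 2.43 ± 0.23, adjusted p = 5.23e-06. Klf9 had 67.3 ± 1.67 CPM, 39.8 ± 1.92 CPM and 4.74 ± 0.0845 CPM in the same order (0.76 ± 0.12, adjusted p = 0.00329), and Fkbp5 had 864 ± 88 CPM, 560.5 ± 62.2 CPM and 64.1 ± 1.36 CPM (0.62 ± 0.09, adjusted p = 0.00229). Of the genes that fell, Tnip3 had 17 ± 1.51 CPM, 28.8 ± 1.27 CPM and 97.6 ± 7.69 CPM (−0.76 ± 0.12, adjusted p = 0.00267). In each of these the corticosterone mean lay between the other means.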

How the data were processed

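The values were raw read counts per gene, as deposited by the authors for 27 libraries and 29872 genes. Per the labels, libraries were made from poly(A) RNA with a directional NEBNext Ultra II kit and sequenced as paired 50 bp reads on a NovaSeq. Per the submitters' processing notes, fastp 0.23.2, STAR 2.7.0, featureCounts and edgeR 3.38.4 were used with build mm10. Which strand setting the counting used was not stated there, so values of overlapping or antisense genes are less certain. Gene positions are from GENCODE vM21 (GRCm38), which held 29815 of the identifiers.

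All 27 libraries (20162729 to 48023102 counts) entered 1 fit with 8 group means in edgeR 4.0.16 under R 4.3.3 (TMM scaling, filterByExpr with minimum count 10, quasi-likelihood F test, robust, Benjamini-Hochberg adjustment over 14589 genes), which was tested on simulated data. Genes were called at an adjusted p under 0.05. Values after ± are standard errors for log2 fold changes and SD for CPM, which is edgeR's count relative to the TMM-scaled library size. The lowest and highest totals bound the precision of low genes.

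The genes named were the 15 largest rises and 15 largest falls with at least 5 CPM and no overlap between groups, the 5 largest of each among genes of at least 200 CPM, up to 4 called members per list by adjusted p, a fixed set of receptor, feedback and inflammatory genes, and for the other comparisons the 5 largest of each sign. Some genes that the rule selected are left out of the text. Other list members are named to complete a list and were chosen after their values were seen. The members, lists and rule were chosen with earlier results of these data known.

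The main fit did not pair libraries by number, which only the alternatives with the replicate block did. In wild type, deviations from the group mean correlated across genes by 0.64, 0.24 and 0.58 between same-numbered dexamethasone and vehicle libraries. Between libraries of different numbers the correlations ran from −0.58 to 0.18. Because deviations within a group cancel out, these are not independent of the same-numbered values. What a number stands for is not labelled. Alternatives were RLE scaling, no filter, DESeq2 1.42.0, a fit of only the compared groups, the replicate block, and leaving out each library.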

Additional observations from a re-analysis of the deposited data

Results flagged for a closer look

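The response to dexamethasone differed between genotypes, by the test of the interaction, for 11 of the genes named here. The value is the log2 fold change in knockout minus that in wild type, with its adjusted p from edgeR's quasi-likelihood test. Without the wild-type libraries numbered 1, the calls of Lpl and Ppfibp2 held (adjusted p = 0.00218 and 0.0252) and the other 9 were lost (adjusted p from 0.0586 to 0.375), with the sign kept in all 11. Lpl, Ppfibp2, Ms4a4a and Ggta1 were called without each of 14 libraries singly, and the other 7 were not. A smaller fold rise in knockout gave −1.56 for Zbtb16 (adjusted p = 0.0473) and −2.17 for Ms4a4a (adjusted p = 0.000862). Il6st, the gp130 receptor chain, had −0.63 (adjusted p = 0.0191), with a log2 fold change of −0.04 ± 0.08 in knockout and 0.59 ± 0.09 in wild type.

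A fall seen in wild type was smaller or turned in knockout for the lipoxygenase Alox5 (1.04, adjusted p = 0.0121), for the cAMP phosphodiesterase Pde4b (0.90, adjusted p = 0.0454), for Ppfibp2 (0.88, adjusted p = 0.000829) and for Ggta1 (0.49, adjusted p = 0.000829). Lipa, the lysosomal acid lipase, fell further in knockout (−0.41, adjusted p = 0.0355). Lpl, lipoprotein lipase, also fell further (−1.57, adjusted p = 5.56e-05), to 491 ± 68 CPM with dexamethasone, against 1938 ± 291 CPM with vehicle in knockout (SD, n = 4 each) and 1118 ± 86.4 CPM, against 1491 ± 265 CPM in wild type (SD, n = 3 each). The fall of Lpl in wild type was itself lost without dexamethasone library 2 or 3 or vehicle library 2 or 3 (largest adjusted p = 0.204).

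Genes that did not pass in wild type gave −1.37 for the scaffold gene Dlg3 (adjusted p = 0.0428) and 0.64 for Osgin1 (adjusted p = 0.047). Their log2 fold changes were −1.27 ± 0.19 and 0.54 ± 0.09 in knockout and 0.10 ± 0.21 and −0.10 ± 0.10 in wild type. The causes of these differences were not tested.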

How the results depend on the processing

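Of 155 genes selected for naming and called with dexamethasone in wild type, 120 were called in the same direction under every alternative and 0 reversed. The losses were 0 with RLE scaling, 1 with DESeq2, 9 without the low-count filter, 17 in a fit of only the compared groups, 0 with the replicate block, 10 to 17 without a single library and 14 without the wild-type libraries numbered 1. The wild-type count of 1996 was 3225 with the replicate block, 1329 with only the compared groups, 4397 with only those groups and the block, and 1327 to 1850 without 1 library. In knockout, 2684 was 4056 with the block and 2106 to 2805 without 1 library. There the same-numbered libraries' correlations were 0.27, 0.36, 0.0052 and 0.19, and those of different numbers ran from −0.37 to 0.26. What samples of a number share is not labelled.

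Dexamethasone against corticosterone (27) gave 57 with DESeq2, 10 with only the compared groups, 467 with these and the block, 137 with the block, 14 without the libraries numbered 1 and 10 to 39 without 1 library. The interaction (27) gave 80, 10, 74, 214 and 3 in the same order and 15 to 36 without 1 library. It fell below 18 without knockout vehicle library 2 or 3, knockout dexamethasone library 1, wild-type vehicle library 1 or 3, or wild-type dexamethasone library 1 or 2. The causes were not tested. Counts of 94 list directions moved by over 1.5 times in 228 of 1222 comparisons.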
